A study of Mus musculus with 2 samples.

Results

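The genes described here encode the killing machinery of cytotoxic T cells and natural killer (NK) cells and the factors and receptors that go with it. They were chosen by symbol, as the 10 rows of the count table whose Entrez identifier maps to Gzma, Gzmb, Gzmk, Prf1, Nkg7, Tbx21, Eomes, Klrk1, Klrd1 or Fasl, of 27179 genes in all. RNA sequencing gave their levels in cells of ALL211, a mouse leukemia of the T-cell lineage (T-ALL, T-cell acute lymphoblastic leukemia) with the genotype Vav-tTA;TRE-GFP-shIkaros. In this system the Vav promoter, active in blood cells, drives a tetracycline-controlled transactivator (tTA), which in turn drives a GFP-linked short hairpin RNA against the transcription factor Ikaros, and doxycycline (Dox) shuts hairpin and GFP off so that endogenous Ikaros returns. The cells were taken by flow sorting out of spleens of leukemic recipients. The Dox group (n = 1 library) came from mice given Dox for 3 days and was labelled GFPmid. The untreated group (n = 1 library) was labelled GFPhigh. Both groups carry the transgenes and derive from 1 leukemia, and the recipients keep their own blood cells. The series design names 2 mice per condition and the labels 1 sample, and the sources used here do not say whether mice were pooled.

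Cytotoxic lymphocytes store granzymes, which are serine proteases, together with perforin in secretory granules. On contact with a target cell the granules fuse with the membrane, perforin opens pores, and granzymes enter and cleave proteins inside the target. The T-box factors T-bet and Eomes are known to drive this programme in mature T cells and NK cells, while Fas ligand kills by a separate route through the death receptor Fas.

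The Dox library held 16484613 counts and the untreated library 16960042. Ikzf1, which encodes Ikaros, was at 1229 CPM (counts scaled by library size) in the Dox library and 120.5 CPM in the untreated library, the direction the labels give. The labelled cell type was checked on 13 T lineage markers, of which 12 reached 1 CPM in both libraries, with a summed level of 11164 CPM in the Dox library and 8516 CPM in the untreated library. Trdc, the constant segment of the T-cell receptor delta chain, had 0 counts in the Dox library and 1 count in the untreated library. With 1 library on each side there is no replicate check of any difference, and neither a test between the conditions nor a p-value can be had. Ratios below are Dox over untreated with exact 95% intervals that cover counting error only. Effects of treatment, of the sorting gate and of the individual mice cannot be told apart.

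The granzyme and perforin promoters are shown first, because Gzma was among the most abundant transcripts of both libraries while Gzmk, Gzmb and Prf1 were at or near 0 counts. Each line runs 5′ to 3′ on the gene's strand from 250 bases before the start site to 50 after it, from RefSeq on GRCm38.p6. Gzma lies at chr13:113100932-113101231 on the minus strand, Gzmk at chr13:113180916-113181215 on the minus strand, Gzmb at chr14:56262285-56262584 on the minus strand and Prf1 at chr10:61297586-61297885 on the plus strand. Capitals mark, on either strand, TGGGAA, a core of Ikaros sites (TTCCCA when read on the opposite strand), AGGTGT, a T-box half-site (ACACCT on the opposite strand), and TGTGGT, a RUNX site (ACCACA on the opposite strand).
Gzma: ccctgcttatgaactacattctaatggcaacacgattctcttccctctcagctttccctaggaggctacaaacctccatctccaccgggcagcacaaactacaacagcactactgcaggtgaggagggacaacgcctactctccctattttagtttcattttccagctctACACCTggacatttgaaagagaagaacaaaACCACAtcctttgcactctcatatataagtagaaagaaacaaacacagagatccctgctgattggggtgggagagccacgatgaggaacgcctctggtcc
Gzmk: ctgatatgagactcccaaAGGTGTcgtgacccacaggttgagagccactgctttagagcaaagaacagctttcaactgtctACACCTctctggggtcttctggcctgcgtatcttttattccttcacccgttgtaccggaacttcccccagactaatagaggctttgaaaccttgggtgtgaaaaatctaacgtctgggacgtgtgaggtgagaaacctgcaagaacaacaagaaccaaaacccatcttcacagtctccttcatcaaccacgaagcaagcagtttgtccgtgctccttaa
Gzmb: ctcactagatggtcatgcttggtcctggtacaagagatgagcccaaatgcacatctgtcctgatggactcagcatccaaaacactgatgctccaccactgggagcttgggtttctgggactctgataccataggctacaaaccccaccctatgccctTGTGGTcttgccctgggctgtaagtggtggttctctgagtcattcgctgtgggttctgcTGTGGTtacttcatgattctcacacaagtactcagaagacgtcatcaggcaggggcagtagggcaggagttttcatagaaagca
Prf1: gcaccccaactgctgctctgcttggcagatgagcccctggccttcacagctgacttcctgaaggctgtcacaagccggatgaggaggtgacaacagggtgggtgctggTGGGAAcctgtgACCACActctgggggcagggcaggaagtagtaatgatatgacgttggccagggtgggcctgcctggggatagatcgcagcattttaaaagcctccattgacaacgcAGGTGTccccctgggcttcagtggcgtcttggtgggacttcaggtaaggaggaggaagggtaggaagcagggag
The Gzma promoter held 1 T-box half-site and 1 RUNX match, the Gzmk promoter 2 T-box half-sites, the Gzmb promoter 2 RUNX matches and the Prf1 promoter 1 match of each kind. No 2 matches overlapped. Promoters were listed for 9 members, all but Klrd1, and 2 of the 9 held the Ikaros letters (Prf1 and Tbx21), 4 the T-box letters and 5 the RUNX letters. Among all 32851 listed promoters, 25.6% held the Ikaros letters, 13.7% the T-box letters and 16.8% the RUNX letters. A match of letters is a description of the window and not a bound site.

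Granzymes. Gzma, which encodes the trypsin-like protease granzyme A, was the dominant member. It had 45825 counts in the Dox library and 36121 in the untreated library, or 2798 CPM and 2116 CPM. Gzma alone took 0.278% of all counts in the Dox library and 0.213% in the untreated library, and 99.4% and 99.5% of the counts of the 10 members. Per length (RPKM, CPM per kilobase of gene length), its level was 3187 RPKM in the Dox library, the 10th highest of all genes, and 2410 RPKM in the untreated library, the 18th highest. The ratio was 1.32 (interval 1.30 to 1.34; log2 fold 0.40). Its difference was therefore larger than the counting error and smaller than 2-fold.

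Among named genes, those nearest to Gzma in level per length over the 2 libraries were the mitochondrial genes ND2 and ND1, the translation elongation factor gene Eef1a1 and the ribosomal protein genes Rpl41 and Rpl8. The nearest, ND2, was at 2289 RPKM in the Dox library and 1962 RPKM in the untreated library, a Euclidean distance of 0.56 on the log2 scale. With 2 libraries such nearness means only a similar level and a similar ratio.

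Gzmb, the caspase-like granzyme of activated killer cells, and Gzmk, a tryptase of the same family as Gzma, each had 0 counts in the Dox library and 0 counts in the untreated library. A count of 0 allows up to 0.183 CPM in the Dox library and 0.176 CPM in the untreated library, taking 3 counts as the floor. Of the 7 other granzyme genes, 6 had 0 counts in both libraries. The exception was Gzmm, named after its values were seen, with 14 counts in the Dox library and 8 in the untreated library (0.855 CPM and 0.469 CPM; ratio 1.82, interval 0.714 to 5.02). Near-identical copies in the Gzmb cluster can share reads, and the sources used here do not say how reads with several alignments were counted, so their 0 counts are uncertain.

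**Figure D1:**
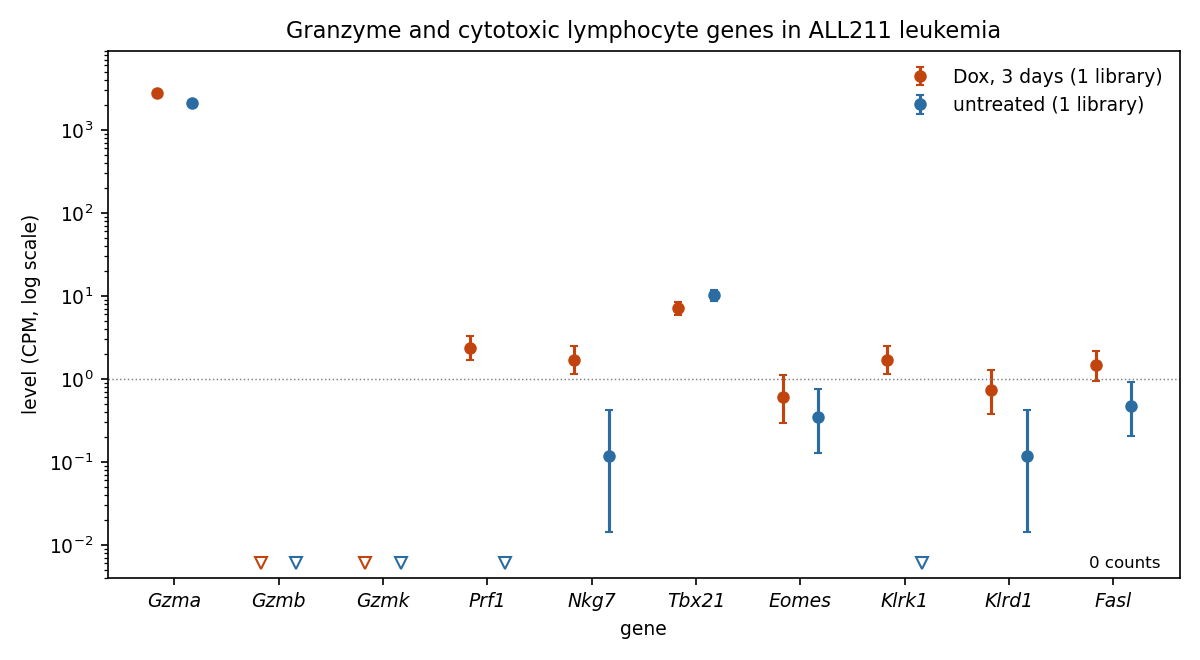
Level of each of the 10 genes (CPM, log scale) in the Dox library (left point of each pair) and the untreated library (right point), with exact 95% Poisson intervals for counting error, and open triangles for 0 counts. Gzma stands at 2798 and 2116 CPM, Tbx21 at 7.08 and 10.1 CPM, and the other genes under 3 CPM in both libraries; the dotted line marks 1 CPM.

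The genes within 200 kb of Gzma were far below it. Gzmk, its nearest granzyme neighbour, lies 70649 bases away on chromosome 13 and had 0 counts in both libraries. On GRCm38, Gzma spans chr13:113093824-113100981 and lies within the RefSeq span of Cdc20b, which had 82 counts in the Dox library and 40 in the untreated library (5.01 CPM and 2.34 CPM; ratio 2.14, interval 1.45 to 3.20). The sources used here do not say how strand was treated in counting, so reads of overlapping exons could not be assigned by strand. Esm1, on the far side of Gzmk, was at 0.855 CPM in the Dox library and 7.38 CPM in the untreated library, and the RNA helicase genes Mtrex and Dhx29 were at 160.8 and 92.7 CPM in the Dox library and 234.4 and 105.3 CPM in the untreated library.

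**Figure D2:**
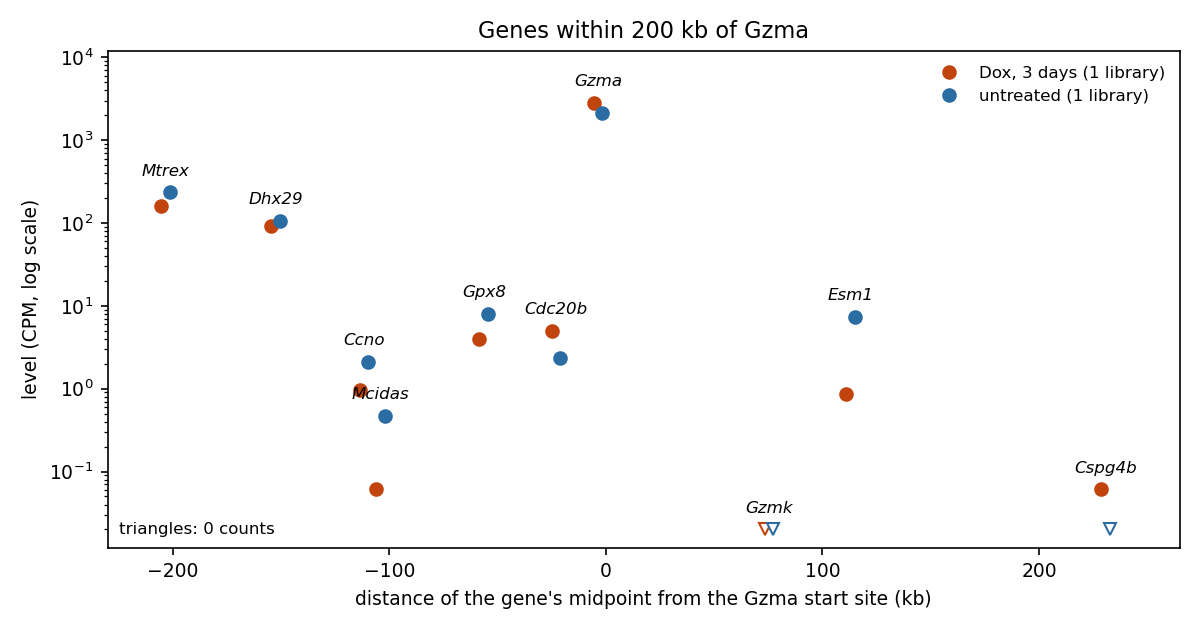
Level (CPM, log scale) of the genes within 200 kb of Gzma, other than microRNA genes, plotted at the distance of each gene's midpoint from the Gzma start site in kb, rising with the chromosome coordinate; Dox points are shifted left and untreated points right by the same small step, and triangles mark 0 counts. Gzma, at 2798 and 2116 CPM, lies above Mtrex at 160.8 and 234.4 CPM and Gzmk at 0 counts.

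Granule partners. Prf1, which encodes perforin, had 39 counts in the Dox library and 0 in the untreated library. Its level was 2.38 CPM in the Dox library and under the floor of 0.176 CPM in the untreated library. The Dox level was 13.6-fold the floor of 3 counts in the untreated library, and the lower bound of the counting interval was 10.5. Nkg7, a membrane protein of cytotoxic granules, had 28 counts in the Dox library and 2 in the untreated library, or 1.71 CPM and 0.117 CPM (ratio 14.6, interval 3.68 to 126). Per length, even the Dox level of Prf1, 1.16 RPKM, ranked 10772nd and that of Nkg7, 2.10 RPKM, 9960th. Both genes were thus detected in the Dox library at levels far below that of Gzma.

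T-box factors. Tbx21, which encodes T-bet, was the second most abundant member by CPM and differed in the other direction. It had 116 counts in the Dox library and 173 in the untreated library, or 7.08 CPM and 10.1 CPM (ratio 0.699, interval 0.548 to 0.889; log2 fold -0.51). It was the only member whose counting interval lay below 1, and the difference was under 2-fold. Nearest to it per length were Cyb561, Iqch, Dtwd2, Nubpl and Zcchc24. Iqch, at 2.79 RPKM in the Dox library and 4.10 RPKM in the untreated library, stood beside Tbx21 at 2.78 and 3.97 RPKM. Eomes, which encodes the related factor eomesodermin, had 10 counts in the Dox library and 6 in the untreated library (0.611 CPM and 0.351 CPM). Its ratio of 1.74 had an interval of 0.572 to 5.82, so no difference was detectable at this depth.

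NK receptors. Klrk1 encodes NKG2D, an activating receptor for stress-induced ligands, and had 28 counts in the Dox library and 0 in the untreated library. Its level was 1.71 CPM in the Dox library, 9.73-fold the floor of 3 counts in the untreated library (lower bound of the counting interval 7.40). Klrd1 encodes CD94, the common partner of the NKG2 receptors encoded by the Klrc genes. It had 12 counts in the Dox library and 2 in the untreated library (0.733 CPM and 0.117 CPM; ratio 6.25, interval 1.39 to 57.5). Klrk1 and Klrd1 lie in the NK gene complex of chromosome 6. Of the 27 genes with Klr symbols within 2 Mb of Klrk1, 14 had a count in the Dox library and 5 in the untreated library, and 2 reached 1 CPM in the Dox library and 0 in the untreated library. Over all 27179 genes, 15995 had a count in the Dox library and 15487 in the untreated library. Of the 12125 genes that reached 1 CPM in a library, 648 did so in the Dox library alone. Without Klrk1 and Klrd1 the Klr genes summed to 87 counts in the Dox library and 25 in the untreated library. Klra17, the other Klr gene at 1 CPM in the Dox library, held 24 of these 87 and had 0 counts in the untreated library. The cell type that these counts came from was not tested. Klrc1, Klrc2 and Klrc3, the NKG2 genes whose products pair with CD94, had 0 counts in both libraries. Near-identical Klr copies can share reads too, with the same limit.

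Fas ligand. Fasl, whose product kills through Fas, had 24 counts in the Dox library and 8 in the untreated library, or 1.47 CPM and 0.469 CPM. Its ratio was 3.13 with an interval of 1.36 to 8.05, above 1 but not wholly above 2-fold.

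Across the 10 members, 7 were higher in the Dox library by point estimate, Tbx21 was lower and 2 had no counts. The counting interval lay wholly above 1 for 6 members (Gzma, Prf1, Nkg7, Klrk1, Klrd1 and Fasl) and wholly above 2-fold for 3 (Prf1, Nkg7 and Klrk1). A level of at least 1 CPM in at least 1 library was reached by 6 members, and by only Gzma and Tbx21 in both. Of these 6, 4 were at least 2-fold higher on the log2 scale with a prior count of 2 (Prf1, Nkg7, Klrk1 and Fasl) and none was lower by that factor. Over all 12125 genes that reached this level, 13.6% were higher by that factor and 13.0% were lower by it, and 9.11% had an interval wholly above 2-fold. A positive log2 fold was found for 49.3% of these genes. The share of all genes with an interval wholly above 1 was not computed, so the count of 6 such members is not read as a property of the members. The 4 higher members reached 1 CPM in the Dox library alone. Among the 648 genes that did so, all had a positive log2 fold by construction and 82.4% were at least 2-fold higher. The count of 4 is therefore not read as a property of the members. The 3 members with an interval wholly above 2-fold are among these 4. The share of the 648 genes with such an interval was not computed, so the count of 3 is not read as such a property either. With a filter of 5 CPM none of the 4 was kept, and with a mean of at least 1 CPM over the libraries only Prf1 was. Among the 11042 genes at 1 CPM or more in both libraries, 10.1% were at least 2-fold higher, and Gzma and Tbx21 were not.

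Summed over the 10 members, the level was 2814 CPM in the Dox library and 2127 CPM in the untreated library. Without Gzma the other 9 summed to 15.7 CPM and 11.2 CPM, a ratio of 1.40 (interval 1.16 to 1.70). Tbx21, which differed in the other direction, made up 116 of their 257 counts in the Dox library and 173 of 191 in the untreated library. The ratio of 1.40 therefore describes neither Tbx21 nor the remaining genes. In bulk libraries, more cells of a type and more RNA per cell cannot be told apart.

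**Figure D3:**
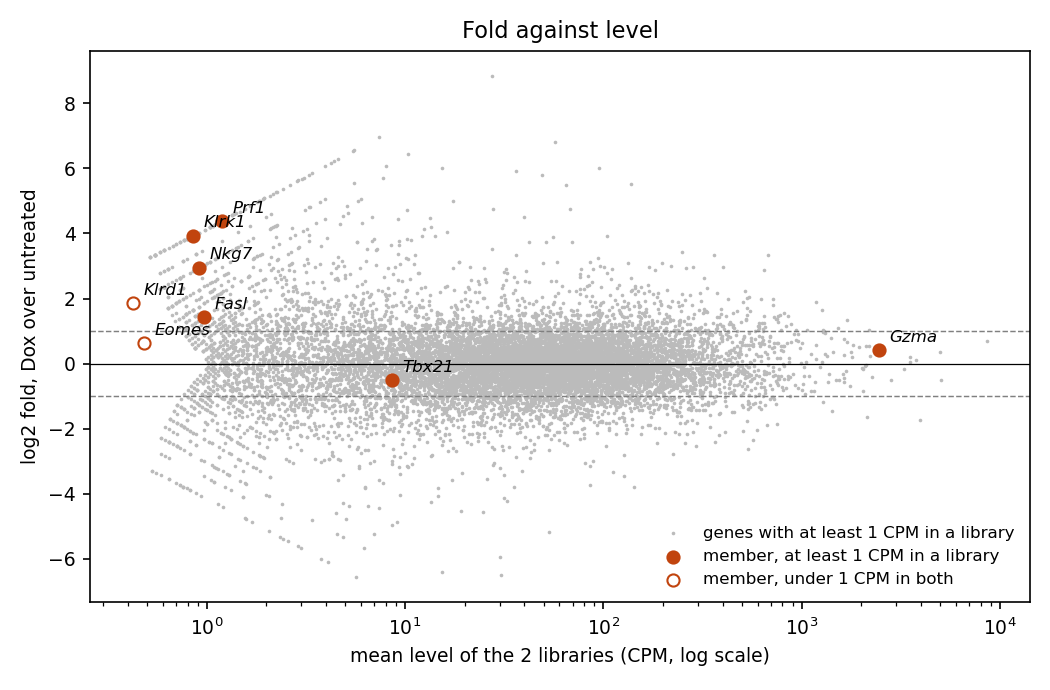
Log2 fold (Dox over untreated, prior count of 2) against the mean level of the 2 libraries (CPM, log scale) for genes with at least 1 CPM in a library (grey) and for the members with a count (filled, at least 1 CPM in a library; open, under 1 CPM in both). Gzma (0.40) and Tbx21 (-0.51) lie inside the dashed 2-fold lines, and Prf1 (4.39), Klrk1 (3.94) and Nkg7 (2.95) lie among genes with few counts.

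Each list of markers of other cell types had a higher summed level in the Dox library, and the lists held single genes that did not. None of the 6 NK cell markers reached 1 CPM, and their summed level was 1.59 CPM in the Dox library, from 26 counts, and 0.469 CPM in the untreated library, from 8 counts. Of these NK cell markers, Ncr1, which encodes NKp46, and Klra8 each had 2 counts in the Dox library and 0 in the untreated library. Klrb1c, which encodes NK1.1, had 11 and 5 counts, and Klra4 and Klre1 had 0 in both. Itga2, named after its values were seen, had 11 and 3 counts (ratio 3.82, interval 1.01 to 21.3). Dendritic cell markers summed to 47.9 CPM in the Dox library and 1.11 CPM in the untreated library, and the 6 of 7 that reached 1 CPM were each at least 2-fold higher. All 6 reached it in the Dox library alone, as did 4 macrophage, 3 erythroid and 2 neutrophil genes. Of all such genes 82.4% were at least 2-fold higher, so the counts of these genes are not read as a property of the lists. The macrophage genes Cd68, Csf1r, Mpeg1 and Lyz2 and the erythroid genes Hba-a1, Hba-a2 and Hbb-bs reached 1 CPM in both libraries. Each was at least 2-fold higher, as were 10.1% of all genes at that level in both. The neutrophil genes S100a8 and S100a9 also reached it in both and were not 2-fold higher. Over all genes that reached 1 CPM in a library, 13.6% were at least 2-fold higher. Clec9a, Siglech, Zbtb46 and Cd209a had 0 counts in the untreated library. Macrophage markers summed to 138.0 CPM in the Dox library and 9.67 CPM in the untreated library, of which Mpeg1, a perforin-like gene of macrophages, made up 96.8 CPM and 1.64 CPM (8 of the 8 that reached 1 CPM at least 2-fold higher, of 10; Mertk at 0 in the untreated library and Marco at 0 in both). Erythroid markers summed to 60.3 CPM in the Dox library and 10.02 CPM in the untreated library (6 of 7 at least 2-fold higher), neutrophil markers to 9.83 CPM and 4.98 CPM (2 of the 4 that reached 1 CPM), and B cell markers to 2.08 CPM and 0.469 CPM with no gene at 1 CPM. The neutrophil genes S100a8 (26 counts in the Dox library and 28 in the untreated library) and Retnlg (0 and 4) and the erythroid gene Klf1 (12 and 18) were not higher in the Dox library. The part of these cells in the higher Prf1, Nkg7, Klrk1, Klrd1 and Fasl of the Dox library was not tested. Nor was their part tested in the genes of the lists below that were higher there, such as Ctsh, Slamf7, Cd244a and Zeb2.

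**Figure D4:**
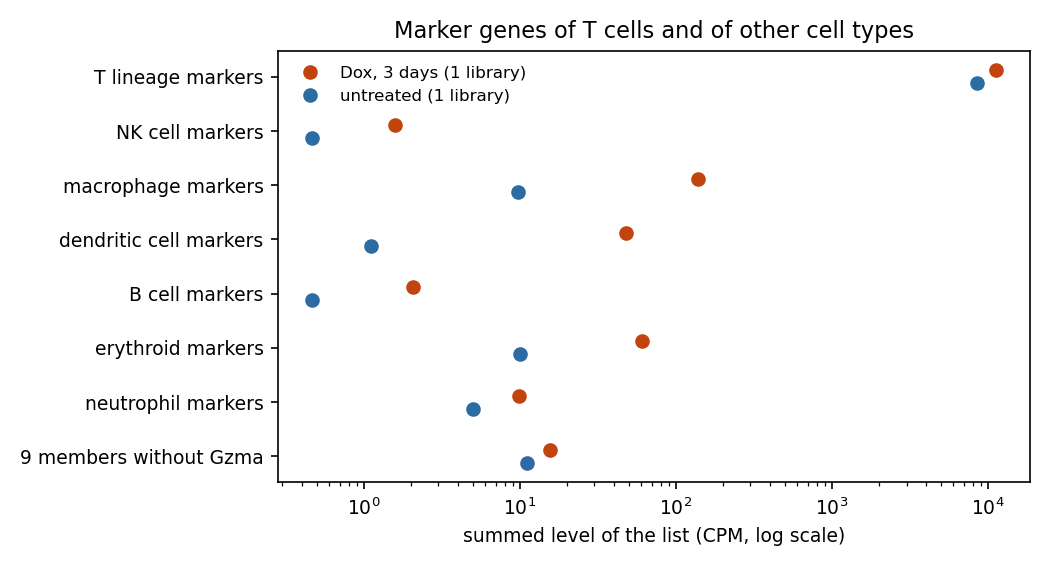
Summed level (CPM, log scale) of each marker list and of the 9 members other than Gzma, in the Dox library (upper point of each pair) and the untreated library (lower point). The 9 members stand at 15.7 and 11.2 CPM, NK cell markers at 1.59 and 0.469 CPM, dendritic cell markers at 47.9 and 1.11 CPM, and T lineage markers at 11164 and 8516 CPM. Of the level of the 9 members, Tbx21 alone made up 7.08 CPM in the Dox library and 10.1 CPM in the untreated library.

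The genes that mature, store and release granules were mostly abundant in both libraries. Of 18, 16 reached 1 CPM in a library, 4 were higher by 2-fold or more and 0 lower by 2-fold or more, with a median log2 fold of 0.56 against -0.01 over all genes. In this and the following lists, the counts stand beside 13.6% higher and 13.0% lower over all genes, and genes that reached 1 CPM in the Dox library alone (2 of the 16 here, Ctsh and Ctsw) had to be higher there. Srgn, the proteoglycan serglycin that holds granzymes in the granule, was at 875.8 CPM in the Dox library and 211.1 CPM in the untreated library (ratio 4.15, interval 4.0 to 4.3). Ctsw, a cathepsin of cytotoxic cells, had 55 counts in the Dox library and 4 in the untreated library, Ctsh, another cathepsin, 127 and 2, and Cst7, which encodes the protease inhibitor cystatin F, 59 and 18. Ctsc, the peptidase known to activate granzymes, was at 90.7 CPM in the Dox library and 62.9 CPM in the untreated library (ratio 1.44, interval 1.33 to 1.56). The exocytosis genes Rab27a and Unc13d, named like Ctsc after their values were seen, had ratios of 1.51 and 1.83.

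Serpin genes listed as granzyme and perforin inhibitors were present as well. Whether the product of each inhibits a granzyme was not examined. Of the 6 listed genes 5 reached 1 CPM, 2 were higher by 2-fold or more and 0 lower by 2-fold or more (median log2 fold 0.45). Of the 5, 2 reached 1 CPM in the Dox library alone. Serpinb9, the mouse inhibitor of granzyme B, was at 15.2 CPM in the Dox library and 17.4 CPM in the untreated library (ratio 0.874, interval 0.735 to 1.04). Serpinb6b was at 18.6 CPM and 20.4 CPM, and its ratio of 0.911 had an interval of 0.778 to 1.07. The 2 higher genes were Serpinb6a (ratio 2.10, interval 1.73 to 2.55) and Serpina3g, with 45 counts in the Dox library and 2 in the untreated library.

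Signalling partners and ligands of the receptors had their own levels. Of 11 adaptor genes 9 reached 1 CPM, with 3 higher by 2-fold or more and 0 lower by 2-fold or more (median log2 fold 0.88, or 0.44 over genes with at least 5 CPM). All 3 reached 1 CPM in the Dox library alone. Of all such genes 82.4% were at least 2-fold higher, so the count of 3 is not read as a property of the list. They were Syk (68 and 0 counts in the Dox and untreated libraries), Tyrobp, which encodes DAP12 (191 and 8), and Fcer1g (79 and 12), which myeloid cells also express. Hcst, which encodes DAP10, the adaptor of NKG2D, was at 15.7 CPM in the Dox library and 8.49 CPM in the untreated library (ratio 1.85, interval 1.5 to 2.28; named after its values were seen). Of the 25 genes of NK and related receptors, 6 reached 1 CPM and 5 of them were at least 2-fold higher (median log2 fold 2.90), 3 of the 6 having reached it in the Dox library alone. The median was 1.04 with no filter and 1.61 over genes with at least 5 CPM. Of the 25, 8 had 0 counts in both libraries. Slamf7 had 93 counts in the Dox library and 0 in the untreated library, Cd244a, which encodes 2B4, 34 and 0, and Tigit, an inhibitory receptor, 155 and 5. Cd96, a receptor that T cells also carry, was at 168.2 CPM and 82.0 CPM.

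Among ligands and receptors of the members' products, 7 of 11 genes were found in the table, 4 reached 1 CPM and 2 of these were at least 2-fold higher (median log2 fold 0.93, or 0.31 with no filter). They were Fas, the receptor of Fas ligand, at 71.7 CPM in the Dox library and 12.5 CPM in the untreated library (ratio 5.72, interval 4.94 to 6.65), and H2-T23, which encodes Qa-1, a ligand of CD94 with NKG2, at 236.5 CPM and 64.1 CPM. Of the NKG2D ligand genes only Ulbp1 and H60b reached 1 CPM, and these differed less. Raet1a, Raet1b, Raet1c and H60a were not found, and Raet1d, Raet1e and H60c had at most 2 counts in a library. Ulbp1 was at 10.7 CPM in the Dox library and 15.6 CPM in the untreated library (ratio 0.687, interval 0.565 to 0.834), and H60b at 2.26 CPM and 2.28 CPM (ratio 0.989, interval 0.613 to 1.59).

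Transcription factors of cytotoxic cells were present beside Tbx21. Of 14 listed, 13 were in the table and 12 reached 1 CPM, 3 of them higher by 2-fold or more and 0 lower by 2-fold or more (median log2 fold 0.75), and 2 of the 12 reached 1 CPM in the Dox library alone. Runx3, a factor of CD8 T cells and NK cells, was at 40.0 CPM in the Dox library and 6.80 CPM in the untreated library (ratio 5.89, interval 4.82 to 7.23). Zeb2, a repressor protein known from mature killer cells, had 19 and 0 counts, and Batf had a ratio of 2.01 (interval 1.82 to 2.22). Tcf7, which encodes TCF-1, was at 3918 CPM in the Dox library and 3665 CPM in the untreated library.

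Cytokine receptors that feed the programme went both ways. Of 10 genes 8 reached 1 CPM, 2 were higher by 2-fold or more and 2 lower by 2-fold or more (median log2 fold -0.31, or -0.17 with no filter and over genes with at least 5 CPM). Il2ra, whose product is the interleukin-2 receptor's alpha subunit, was at 3.30 CPM in the Dox library and 59.6 CPM in the untreated library, and Il2rb, the beta chain shared with interleukin-15, at 21.3 CPM and 48.9 CPM (ratio 0.436, interval 0.384 to 0.495). Il2rg, the common gamma chain, was at 618.7 CPM and 291.3 CPM. Of 13 effector cytokines, chemokines and their receptors, 7 reached 1 CPM, 4 were higher by 2-fold or more and 0 lower by 2-fold or more (median log2 fold 2.05, or 1.02 with no filter and 0.94 with a mean of at least 1 CPM), and 1 of the 7 reached 1 CPM in the Dox library alone. Ltb, which encodes lymphotoxin beta, was at 444.8 CPM in the Dox library and 103.2 CPM in the untreated library. The chemokine receptor gene Cxcr6 was at 20.2 CPM and 3.98 CPM. Tnfsf10, among the 2 most abundant genes of the list, was lower, at 47.3 CPM in the Dox library and 76.3 CPM in the untreated library. Its ratio was 0.619 (interval 0.566 to 0.677). Tnf, named after its values were seen, had a ratio of 0.707 (interval 0.539 to 0.924). Ccl5, a chemokine stored by killer cells, had 26 counts in the Dox library and 4 in the untreated library, and Ifng, named after its values were seen, had 0 counts in both.

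**Figure D5:**
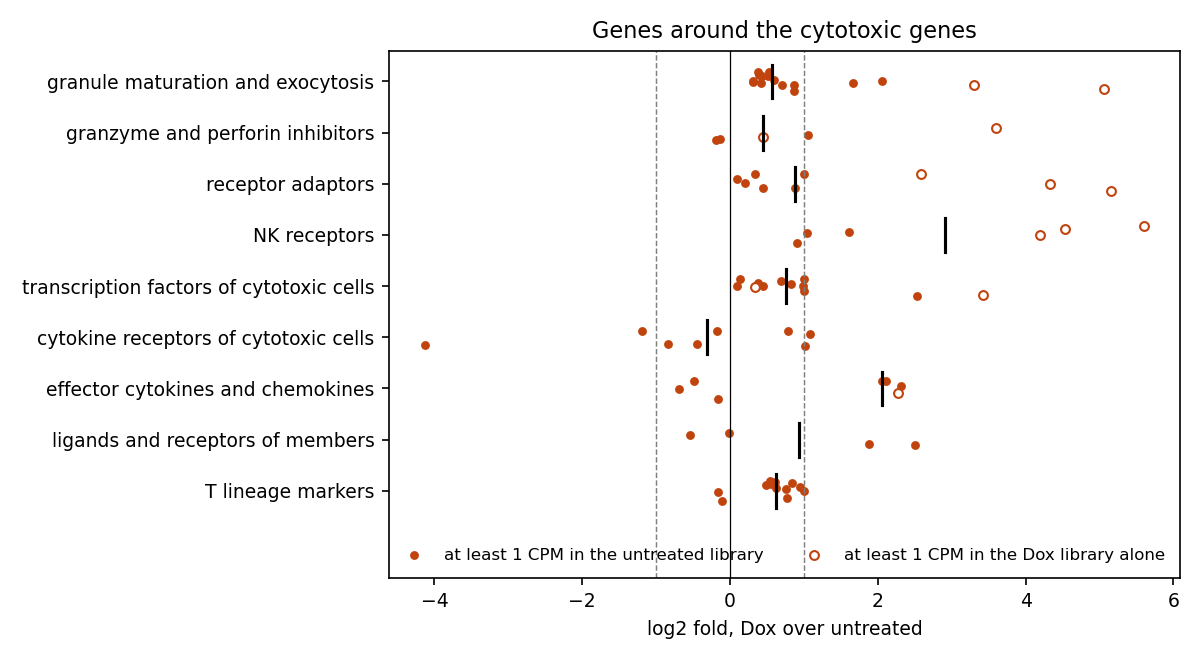
Log2 fold (Dox over untreated, prior count of 2) of each gene with at least 1 CPM in a library, by list; filled points reached 1 CPM in the untreated library, open points in the Dox library alone, black bars are list medians and dashed lines mark 2-fold. Medians of the 9 lists plotted run between -0.31 for cytokine receptors and 2.90 for NK receptors, and the highest points of the adaptor and NK receptor lists are open.

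The log2 fold of Gzma, 0.40, lay within the range of the 12 measured T lineage markers, which ran between -0.16 for Thy1 and 1.0 for Cd8b1 with a median of 0.62. That of Tbx21, -0.51, lay below this range. Prf1, Klrk1, Nkg7 and Fasl are not set against these markers, because they reached 1 CPM in the Dox library alone and the markers did so in both.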

How the data were processed

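RNA of sorted ALL211 cells was sequenced in 1 Dox and 1 untreated library. Deposited were raw counts of reads for each Entrez gene, made with CASAVA 1.8.2 and featureCounts on mm10, per the submitters' processing notes; the deposited gene length column was used for RPKM. The sources used here do not name the aligner, strand setting or annotation. The series table matched the sample tables (0 of 27179 genes differed). Symbols came from RefSeq (GRCm38.p6, 25275 genes) and GENCODE (18), and 1886 genes without one stayed in the totals. All 10 member symbols matched.

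Counts were scaled with TMM factors (0.994 Dox, 1.01 untreated; edgeR 4.0.16, R 4.3.3). Log2 folds carry a prior count of 2, ratios and CPM none. Intervals are exact Clopper-Pearson 95% intervals of the counts; intervals and floors (3 counts) cover counting error only, and PCR copies are not independent molecules. The filter was 1 CPM in at least 1 library. The planned summary by fold was used because 1 library per condition allows no test.

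Members and gene lists were chosen with earlier results of these data known. Named are the 10 members, Ikzf1, from each list examples among the 4 genes of largest absolute log2 fold and the 2 most abundant, marker genes at 0, and the 5 genes nearest to a member; genes within 200 kb of Gzma and Klr genes within 2 Mb of Klrk1 were added after the values were seen. Alternatives were scaling by totals, upper quartile or DESeq2 1.42.0, a prior count of 0.5 or 5, 3 other filters, totals without markers of other cells, a 4-fold threshold and the counting interval. The steps were tested on simulated data. Python 3.11.15, numpy 2.4.6, pandas 2.3.3, scipy 1.17.1 and matplotlib 3.10.9 were used.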

Additional observations from a re-analysis of the deposited data

How the results depend on the processing

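The count of members at least 2-fold higher, 4 as reported, was 0 with a filter of at least 5 CPM in at least 1 library, which only Gzma and Tbx21 passed, and 1 (Prf1) with a filter on the mean of at least 1 CPM, which 3 members passed. It was 5 with no filter, 3 at a 4-fold threshold and 3 with the counting interval wholly past 2-fold. The count at least 2-fold lower was 0 under every alternative run. Over the 6 alternatives of scaling, prior count and totals, the log2 fold of Gzma ran between 0.38 and 0.43, that of Tbx21 between -0.53 and -0.48 and that of Fasl between 1.20 and 1.58. Those of Prf1 (3.16 to 6.33), Klrk1 (2.75 to 5.86), Nkg7 (2.27 to 3.56) and Klrd1 (1.31 to 2.37) followed the prior count, and no sign changed. List medians that moved by over 1.5 times with the filter (NK receptors, receptor adaptors, ligands and receptors of members, cytokine receptors, effector cytokines and chemokines) are given beside their values. The median of dendritic cell markers, 5.09 with the settings used, ran between 4.28 and 5.73. Leaving out a library was not possible with 1 per condition. No paired analysis was possible because each condition has 1 library. Counts under 50 in both libraries for 8 of the 10 members limit what can be said of them.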
